A study of Mus musculus with 12 samples.

Results

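The unfolded protein response and the folding machinery of the endoplasmic reticulum (ER) were followed through 33 genes in 4T1 cells, which are mouse mammary carcinoma cells of the triple-negative kind. The genes were taken by symbol from a list of ER chaperones, disulfide enzymes, stress sensors and stress targets. They are 33 of 78317 genes in the count table, and all 33 were among the 14012 genes with enough counts to be tested. Ddit3 had 2 identifiers in the table, and the one with more counts was used. Cells labelled control or PBRM1 KO were either left untreated or kept for 4 days with 5 ng/ml TGFβ1, a secreted cytokine of the SMAD pathway. Each of the 4 groups had n = 3 libraries, which the labels number as biological replicates. The PBRM1 KO cells are called knockout cells below. PBRM1 is a subunit of the PBAF chromatin remodelling complex. The sources used here do not say whether the knockout line was a clone or a pool. The titles give the untreated libraries as 0 h, so TGFβ1 and the time in culture cannot be told apart.

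Secreted and membrane proteins are folded in the ER by chaperones such as BiP and by enzymes that form disulfide bonds. When unfolded protein builds up, the sensors IRE1, PERK and ATF6 answer. IRE1 splices the messenger RNA of Xbp1, and cleaved ATF6 and spliced XBP1 raise the genes of chaperones and of ER-associated degradation. PERK slows translation and favours ATF4, which raises Ddit3, the gene of CHOP, and other stress genes. The ATF4 arm is shared with other kinases that sense amino acid shortage, haem shortage or double-stranded RNA. The assay counted messenger RNA at its 3′ end, so splicing of Xbp1, cleavage of ATF6 and phosphorylation by PERK were not measured.

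The promoters carry the letters by which the chaperone arm and the ATF4 arm are usually told apart, and 6 of them are shown for that reason. RefSeq promoter sequences (GRCm38.p6) were matched by symbol for 29 of the 33 genes; Hyou1, Manf, Atf6 and Sec61a1 were not matched. The 250 bases before each start were searched on both strands. The ER stress element, bound by NF-Y with ATF6 or XBP1, was searched as CCAAT, 9 bases of any kind and CCACG. The second ER stress element was searched as ATTGG, 1 base of any kind and CCACG, the element of C/EBP with ATF4 or CHOP as TTNCATCA, and a core site of XBP1 and ATF6 as TGACGTGG. Capitals mark the ER stress element in Hspa5, Hsp90b1, Pdia6 and Syvn1. In Herpud1 they mark, in order, the C/EBP-ATF element and the second ER stress element, and in Chac1 the C/EBP-ATF element.
Hspa5, chr2:34771840-34772089, plus strand: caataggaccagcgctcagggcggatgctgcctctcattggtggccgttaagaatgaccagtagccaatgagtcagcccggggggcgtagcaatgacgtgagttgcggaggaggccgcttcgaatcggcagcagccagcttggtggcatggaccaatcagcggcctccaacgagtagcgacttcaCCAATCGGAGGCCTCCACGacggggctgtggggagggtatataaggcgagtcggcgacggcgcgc
Hsp90b1, chr10:86705445-86705694, minus strand: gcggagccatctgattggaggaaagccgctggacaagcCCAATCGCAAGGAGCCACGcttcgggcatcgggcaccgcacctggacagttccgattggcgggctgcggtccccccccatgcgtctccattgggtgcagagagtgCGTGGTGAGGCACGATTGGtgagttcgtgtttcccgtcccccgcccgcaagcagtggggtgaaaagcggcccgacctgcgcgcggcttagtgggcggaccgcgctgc
Pdia6, chr12:17266339-17266588, plus strand: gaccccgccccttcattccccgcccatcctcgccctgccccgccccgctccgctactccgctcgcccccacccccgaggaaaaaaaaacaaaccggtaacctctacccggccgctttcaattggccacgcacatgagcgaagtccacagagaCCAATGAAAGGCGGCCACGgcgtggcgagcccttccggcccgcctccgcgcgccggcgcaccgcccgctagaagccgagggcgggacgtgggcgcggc
Syvn1, chr19:6046326-6046575, plus strand: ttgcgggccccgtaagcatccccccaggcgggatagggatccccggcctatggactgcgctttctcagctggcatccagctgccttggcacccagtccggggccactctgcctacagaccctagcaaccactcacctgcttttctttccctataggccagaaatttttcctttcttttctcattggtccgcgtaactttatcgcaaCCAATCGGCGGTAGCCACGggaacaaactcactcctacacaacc
Herpud1, chr8:94386179-94386428, plus strand: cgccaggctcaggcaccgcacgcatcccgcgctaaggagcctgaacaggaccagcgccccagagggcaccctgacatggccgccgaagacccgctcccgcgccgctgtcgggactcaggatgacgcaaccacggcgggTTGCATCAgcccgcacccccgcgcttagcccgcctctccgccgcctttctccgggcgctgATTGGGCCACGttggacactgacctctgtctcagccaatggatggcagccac
Chac1, chr2:119350992-119351241, plus strand: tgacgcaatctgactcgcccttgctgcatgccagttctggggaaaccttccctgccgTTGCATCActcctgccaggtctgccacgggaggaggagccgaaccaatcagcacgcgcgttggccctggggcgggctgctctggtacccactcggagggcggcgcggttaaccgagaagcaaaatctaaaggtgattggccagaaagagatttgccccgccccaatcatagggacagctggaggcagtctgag

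Of the 29 promoters, 9 held the ER stress element, against 37 of 32851 promoters in the table (0.113%). They belonged to Hspa5, Hsp90b1, Calr, Canx, Dnajc3, Creld2, Pdia6, Ero1b and Syvn1. Hsp90b1 held it at 2 places, once on each strand. Among the chaperones 6 of 9 matched promoters held it, and among the ATF4-CHOP genes 0 of 5. In Hspa5 the element ended 46 bases before the start, and in Syvn1 25 bases before it. Herpud1 alone held the second ER stress element, which 10 of 32851 promoters hold (0.0304%). Its window ends in CCAAT, 9 bases and CCAC. The search stopped there, so it could not tell whether Herpud1 holds the first element across the start. The C/EBP-ATF element was in 2 of 29, Chac1 and Herpud1, against 3.45% of all promoters. The core site was in 0 of 29, against 0.563% of all. In Herpud1 the C/EBP-ATF element and the second ER stress element did not overlap. A match is a run of letters and no evidence of binding.

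Library totals ran from 9265693 to 11250850 counts, and values below are CPM, counts scaled to an equal library total, in the order of replicates 1, 2 and 3. Pbrm1 was at 258 to 328 CPM in control and 207 to 274 CPM in knockout libraries, and a 3′ count need not read the edited part. Both TGFβ1 replicate 3 libraries stood apart. On an axis from untreated cells at 0 to the other genotype's TGFβ1 replicates 1 and 2 at 1, the control one lay at 0.307 and the knockout one at 0.388. Replicates 1 and 2 lay at 0.812 to 0.966. Counts of genes that rose or fell are therefore given with and without both. Epithelial carcinoma markers (Krt8, Krt18, Krt19, Epcam and Cdh1) summed to 2300 to 2400 CPM in untreated control cells and 1620 to 1820 CPM with TGFβ1, and to 2190 to 2350 and 1890 to 1960 CPM in knockout cells. Of the defining leukocyte markers, Ptprc was 0 in 7 libraries, Cd3e in 8 and Itgam in 11. Among the other leukocyte markers Cd14 (9.06 to 21.2 CPM), Cd68 (3.62 to 7.83) and Lyz2 (1.17 to 2.58) were above 0 in all 12 libraries, and Csf1r reached 1.18 CPM. These 4 summed to 18.49 to 21.28 CPM in untreated control cells and 24.04 to 29.03 CPM with TGFβ1, and to 16.98 to 21.93 and 25.38 to 28.5 CPM in knockout cells, without overlap in either genotype. Among plasma cell markers Jchain, Mzb1 and Derl3 reached at most 0.379 CPM. Sdc1, which carcinoma cells also express, spanned 69.2 to 180.0 CPM, and the sum of these 4 markers rose in range from 69.3 to 74.8 CPM in untreated control cells to 92.2 to 180.0 CPM with TGFβ1. In knockout cells that sum went from 72.0 to 79.3 CPM to 88.0 to 151 CPM. The sum of 6 fibroblast markers was 20.5 to 27.3 CPM in untreated control cells and 19.4 to 68.4 CPM with TGFβ1. In knockout cells it was 14.5 to 23.5 and 19.1 to 52.2 CPM. These ranges overlapped in both genotypes, and Col1a1 alone reached 53.6 CPM. The part of these shifts in the results was not tested, and in bulk RNA fewer cells of a type and less RNA per cell cannot be told apart.

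Genes of the folding machinery rose with TGFβ1, and no gene of the ATF4-CHOP branch passed in either direction with all libraries and the count filter. In control cells 13 of 33 genes rose and 0 fell (edgeR quasi-likelihood test, Benjamini-Hochberg adjusted p below 0.05 over 14012 genes). Of all tested genes 5.89% rose and 2.91% fell. In knockout cells 10 rose and 0 fell, against 7.65% and 3.72% of all genes. The median log2 fold change of the 33 was 0.29 in control and 0.18 in knockout cells, against 0.00 for all tested genes in both. Among chaperones, isomerases and oxidases 8 of 17 rose in control cells and 4 of 17 in knockout cells, where the replicate block described below gave 8 of 17. Among the 5 ATF4-CHOP genes 0 rose and 0 fell in either, with medians of −0.21 and −0.08. With 5 genes and the shares of all genes above, a count of 0 does not set this branch apart. At an unadjusted p below 0.05, 1 of these 5 (Chac1, lower) passed in control cells and 0 in knockout cells. How many of all genes did so at this level was not counted. DESeq2 and limma-voom each called 0 of the 5 in both genotypes. In control cells Chac1 was called lower in 3 of the 22 alternatives, all edgeR: with no count filter (adjusted p = 8.96e-11), with the replicate block (adjusted p = 0.00339) and without untreated PBRM1 KO replicate 3 (adjusted p = 0.0438). Trib3 was called lower in 1 of them, with no count filter (edgeR adjusted p = 0.0332). Both contrasts measure one treatment in different libraries, and the genes that rose in both genotypes were 8: Dnajb9, Hyou1, Manf, Pdia6, Xbp1, Edem1, Sec61b and Sec61a1. Hspa5, Dnajc3, Pdia3, Pdia4 and Ssr3 passed only the control test, and Eif2ak3 and Syvn1 only that in knockout cells. These are counts of tests passed; the difference itself is tested further on.

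**Figure D1:**
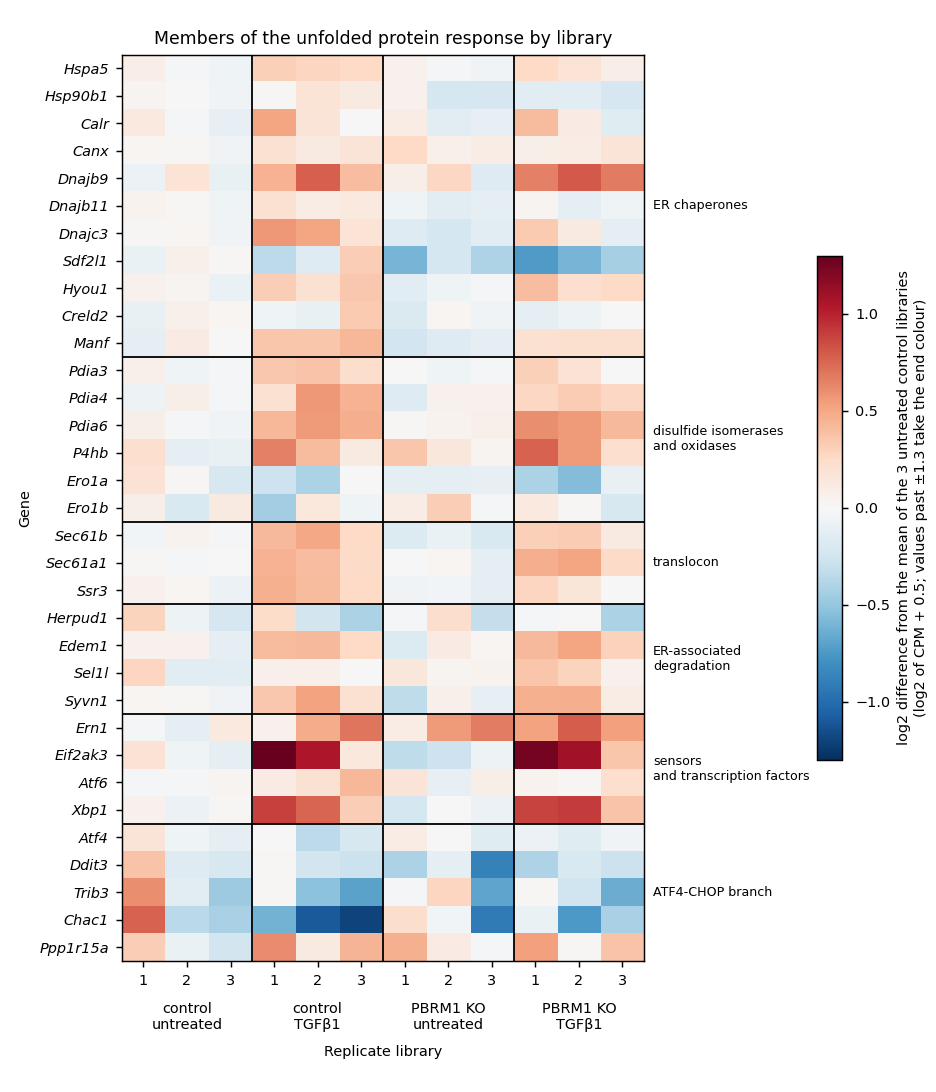
Heat map of the 33 genes (rows, in 6 groups by role) in the 12 libraries (columns, replicates 1 to 3 of each group). Colour is the log2 difference of CPM + 0.5 from the mean of the 3 untreated control libraries. The columns with TGFβ1 are red for Pdia6, Manf, Sec61b, Sec61a1 and Xbp1, and Chac1 is blue in the control columns with TGFβ1.

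Without both TGFβ1 replicate 3 libraries, 15 genes rose and 1 fell in control cells, against 13.9% and 10% of 14260 genes. In knockout cells 16 rose and 1 fell, against 16% and 12%. The gene that fell in both was Ero1a. Same-numbered libraries deviated together in the PBRM1 KO contrast, and with the replicate number as a block 15 genes rose there, against 12% of all genes. The block added Hspa5, Dnajc3, Pdia4, P4hb and Ssr3 to the 10. Leaving out 1 library moved the counts more. In control cells the count of 13 became 5, 3 and 2 without untreated control replicates 1, 2 and 3, and 3 and 2 without control TGFβ1 replicates 1 and 2. It became 7 without PBRM1 KO TGFβ1 replicate 2, which is in neither group of that test. That library acts on it through the shared spread, the count filter (14320 genes tested without it), the scaling and the adjustment. The share of all genes that rose went to between 1.84% and 4.69% in the same 6 fits. In knockout cells the count of 10 became 5 without untreated replicate 1, and 6 and 5 without TGFβ1 replicates 1 and 2. The share of all genes that rose fell to 3.41%, 3.14% and 3.06% in these 3 fits. Manf and Pdia6 passed in every one of the 22 alternative fits in both genotypes. Each gene that rose kept its sign in all fits in which it was tested.

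Among the chaperones Manf, Dnajb9 and Hyou1 rose in both genotypes, and Hspa5 passed in control cells. Hspa5, which encodes BiP, the main Hsp70 chaperone of the ER, was at 1037, 942 and 908 CPM in untreated control cells, 1195, 1174 and 1138 in control cells with TGFβ1, 992, 956 and 932 in untreated knockout cells and 1182, 1094 and 1013 in knockout cells with TGFβ1. In both genotypes the libraries with TGFβ1 lay above the untreated ones with no overlap. Its log2 fold change was 0.28 ± 0.07 in control cells (edgeR adjusted p = 0.0276), against 0.18 ± 0.07 in knockout cells (adjusted p = 0.121). With the replicate block the PBRM1 KO value passed (edgeR adjusted p = 0.0381). Manf, a secreted cofactor of BiP, stood at 336, 382 and 352 CPM in untreated control cells, 460.1, 462 and 475 in control cells with TGFβ1, 298, 319.8 and 327 in untreated knockout cells and 421, 414 and 409.9 in knockout cells with TGFβ1. Every library with TGFβ1 was above every untreated library, across both genotypes. The log2 fold change of Manf was 0.38 ± 0.07 in control cells (edgeR adjusted p = 0.00801), against 0.39 ± 0.07 in knockout cells (adjusted p = 0.00575). Dnajb9, a J-domain cochaperone that targets misfolded proteins and is a classic XBP1 target, was counted at 8.59, 10.1 and 8.19 CPM in untreated control cells, 12.4, 15.8 and 11.8 in control cells with TGFβ1, 9.38, 10.9 and 7.91 in untreated knockout cells and 14.7, 15.98 and 14.5 in knockout cells with TGFβ1. Its libraries with TGFβ1 were again all above the untreated ones. Dnajb9 changed by log2 0.57 ± 0.15 in control cells (edgeR adjusted p = 0.034), against 0.66 ± 0.15 in knockout cells (adjusted p = 0.0126). Hyou1, the nucleotide exchange factor of BiP, held 61.1, 58.96 and 53.4 CPM in untreated control cells, 72.6, 66.7 and 73.1 in control cells with TGFβ1, 51.9, 55.8 and 56.96 in untreated knockout cells and 78.4, 67.7 and 68.7 in knockout cells with TGFβ1. The groups did not overlap in either genotype. Hyou1 gave a log2 fold change of 0.29 ± 0.08 in control cells (edgeR adjusted p = 0.0485), against 0.37 ± 0.08 in knockout cells (adjusted p = 0.0138). Without both TGFβ1 replicate 3 libraries Hyou1 in control cells was at 0.26 ± 0.09 (adjusted p = 0.0586), and it passed in 1 of 12 fits that left out a single library, where its adjusted p reached 0.176. Over the same 12 fits the adjusted p of Hspa5 reached 0.129 in control cells, and that of Dnajb9 0.194 in control and 0.0664 in knockout cells, where Hyou1 reached 0.0771. Counts of Manf were fractional in 7 libraries, where some of its reads also fit other genes.

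Of the other 7 chaperones Dnajc3 passed, in control cells. Dnajc3, a J-domain cochaperone that also restrains PERK, rose in control cells by log2 0.43 ± 0.12 (edgeR adjusted p = 0.0431), and its adjusted p reached 0.176 without control TGFβ1 replicate 2. In knockout cells it was at 0.31 ± 0.12 (adjusted p = 0.123, or 0.0488 with the block). Hsp90b1, the Hsp90 of the ER, was at 1010.5, 964 and 923 CPM in untreated control cells, 981, 1103 and 1038 in control cells with TGFβ1, 997, 828 and 832 in untreated knockout cells and 902, 886 and 824 in knockout cells with TGFβ1. The untreated and treated groups overlapped in both genotypes. Hsp90b1 had a log2 fold change of 0.11 ± 0.08 in control cells (edgeR adjusted p = 0.474), against −0.04 ± 0.08 in knockout cells (adjusted p = 0.82). Calr and Canx, the lectin chaperones of glycoproteins, were at 0.24 ± 0.15 and 0.16 ± 0.07 in control cells and at 0.19 ± 0.15 and −0.03 ± 0.07 in knockout cells. Dnajb11, another cochaperone of BiP, was at 0.14 ± 0.07 and 0.07 ± 0.07. Creld2, a folding factor induced by ER stress, was at 0.08 ± 0.11 and 0.01 ± 0.11, and Sdf2l1, part of a BiP complex, at −0.03 ± 0.16 and −0.19 ± 0.17. None of these 6 passed in either genotype, with edgeR adjusted p of 0.199 or more. At an unadjusted p below 0.05, 6 of the 11 chaperones were higher in control cells and 5 in knockout cells. No share of all genes was counted at this unadjusted level. Of the 3 chaperone genes that rose in both genotypes, only Dnajb9 had a searched promoter, and it held no ER stress element. Hyou1 and Manf were not matched. Of all 9 genes with the element 3 rose in control cells (Hspa5, Dnajc3 and Pdia6), with a median log2 fold change of 0.24. Of the 20 matched genes without it in the searched bases 7 rose, with a median of 0.34. These 20 include Herpud1, whose window cuts a possible element short. In knockout cells 2 of 9 and 5 of 20 rose, with medians of 0.18 and 0.17.

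**Figure D2:**
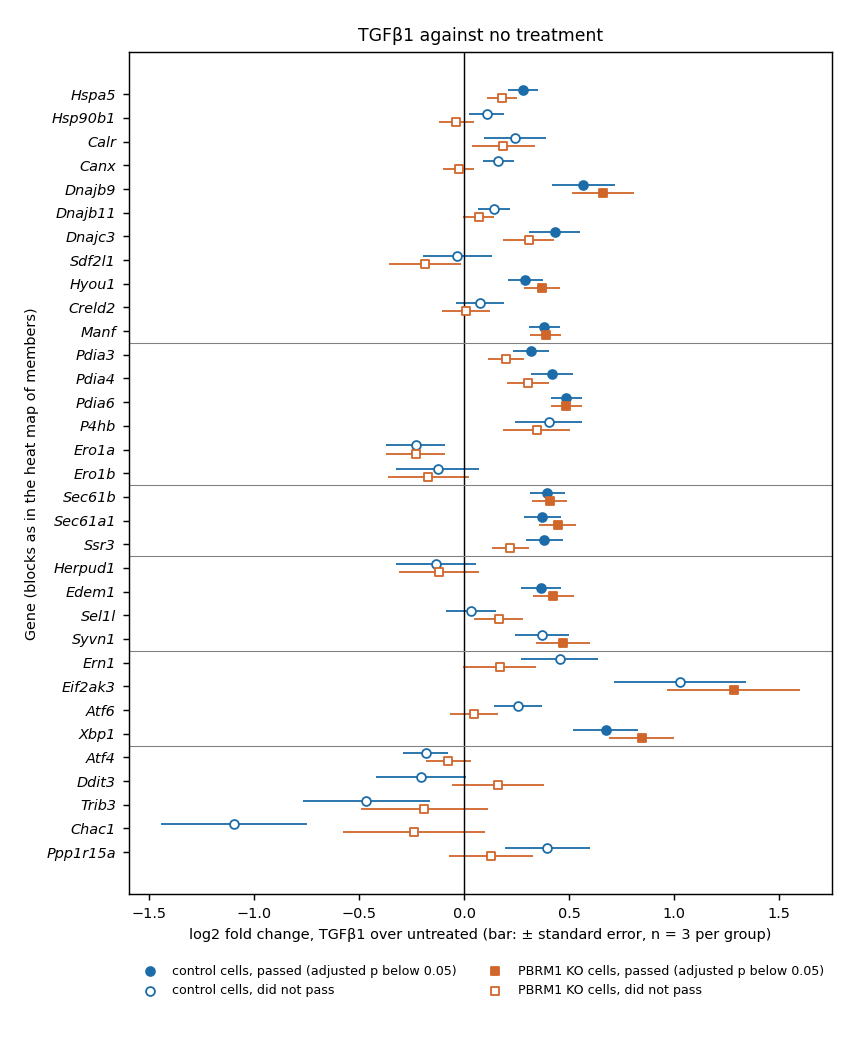
Log2 fold change of each of the 33 genes with TGFβ1 against no treatment (x axis) in control (circles) and knockout cells (squares); bars are ± standard error, n = 3 per group, and filled symbols passed at adjusted p below 0.05. Pdia6 sits at 0.49 in both genotypes, Eif2ak3 lies farthest right at 1.03 and 1.28, and Chac1 farthest left at −1.10 in control cells.

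In control cells 3 of the 4 disulfide isomerases rose, and neither of the oxidases that recharge them passed. Pdia6, a protein disulfide isomerase that binds BiP and limits the sensors, was at 401, 365 and 357 CPM in untreated control cells, 506, 556 and 512 in control cells with TGFβ1, 375, 388 and 392 in untreated knockout cells and 583, 553 and 497 in knockout cells with TGFβ1. Every treated library lay above every untreated one in both genotypes. Its log2 fold change was 0.49 ± 0.07 in control cells (edgeR adjusted p = 0.00168), against 0.49 ± 0.07 in knockout cells (adjusted p = 0.00147). Over all 22 alternatives its edgeR adjusted p was at most 0.0156 in control and 0.0126 in knockout cells. Pdia4, an isomerase with several thioredoxin domains, stood at 113, 123 and 114 CPM in untreated control cells, 134, 174 and 158 in control cells with TGFβ1, 103, 122 and 121 in untreated knockout cells and 144, 147 and 139 in knockout cells with TGFβ1. Treated libraries were higher without overlap. Pdia4 changed by log2 0.42 ± 0.10 in control cells (edgeR adjusted p = 0.0219), against 0.30 ± 0.10 in knockout cells (adjusted p = 0.0685). The block took the PBRM1 KO value to an adjusted p of 0.0122, and without control TGFβ1 replicate 2 the control value had an adjusted p of 0.143. Pdia3, the isomerase that works with Calr and Canx on glycoproteins, was counted at 361, 323 and 329 CPM in untreated control cells, 432, 442 and 390.5 in control cells with TGFβ1, 335, 326 and 332 in untreated knockout cells and 429, 386 and 334 in knockout cells with TGFβ1. In knockout cells TGFβ1 replicate 3 lay within the untreated range, while in control cells the groups were apart. For Pdia3 the log2 fold change was 0.32 ± 0.09 in control cells (edgeR adjusted p = 0.0377), against 0.20 ± 0.09 in knockout cells (adjusted p = 0.157). Its control value had an adjusted p of 0.166 without control TGFβ1 replicate 2. P4hb, the founding protein disulfide isomerase, was at 0.40 ± 0.16 (edgeR adjusted p = 0.138) in control and 0.35 ± 0.16 (edgeR adjusted p = 0.182) in knockout cells. Without both TGFβ1 replicate 3 libraries P4hb passed in both, at 0.53 ± 0.12 (adjusted p = 0.00599) and 0.48 ± 0.12 (adjusted p = 0.00956). Ero1a and Ero1b, the oxidases that pass electrons from the isomerases to oxygen, were at −0.23 ± 0.14 and −0.13 ± 0.20 in control cells and at −0.23 ± 0.14 and −0.17 ± 0.19 in knockout cells. Neither passed with all libraries (edgeR adjusted p of 0.317 or more). Ero1a was at −0.36 ± 0.12 (adjusted p = 0.0398) in control and −0.38 ± 0.12 (adjusted p = 0.0289) in knockout cells without both replicate 3 libraries, opposite in sign to P4hb.

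All 3 genes of the translocon, through which new proteins enter the ER, rose in control cells. Sec61b, a small subunit of the channel, was at 431, 447 and 425 CPM in untreated control cells, 585, 620.3 and 514 in control cells with TGFβ1, 383, 412 and 380.1 in untreated knockout cells and 551, 551 and 469 in knockout cells with TGFβ1. Both genotypes showed treated libraries above untreated ones without overlap, and replicate 3 was the lowest of each treated group. Its log2 fold change was 0.40 ± 0.08 in control cells (edgeR adjusted p = 0.0125), against 0.41 ± 0.08 in knockout cells (adjusted p = 0.00853). Reads that also fit other genes entered Sec61b, whose counts were fractional in all 12 libraries. Sec61a1, the pore-forming subunit, held 166, 158 and 159 CPM in untreated control cells, 221, 215 and 189.5 in control cells with TGFβ1, 160.3, 165 and 148 in untreated knockout cells and 229, 232 and 189.9 in knockout cells with TGFβ1. Again no treated library fell into the untreated range. Sec61a1 gave a log2 fold change of 0.37 ± 0.09 in control cells (edgeR adjusted p = 0.0216), against 0.44 ± 0.09 in knockout cells (adjusted p = 0.00687). Ssr3, a subunit of the translocon-associated protein complex, stood at 356, 338 and 313 CPM in untreated control cells, 464, 452 and 397 in control cells with TGFβ1, 324, 329 and 309 in untreated knockout cells and 419, 378 and 334 in knockout cells with TGFβ1. The groups did not overlap in either genotype, though PBRM1 KO TGFβ1 replicate 3 was close to the untreated libraries. Ssr3 changed by log2 0.38 ± 0.09 in control cells (edgeR adjusted p = 0.0184), against 0.22 ± 0.09 in knockout cells (adjusted p = 0.124). With the block the PBRM1 KO value of Ssr3 had an adjusted p of 0.0294. Leaving out single libraries took the adjusted p in control cells to 0.0810 for Sec61b, 0.0991 for Sec61a1 and 0.0848 for Ssr3. In knockout cells Sec61b reached 0.0605 without TGFβ1 replicate 2.

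ER-associated degradation, which returns misfolded proteins to the cytosol, was mixed. Edem1, a lectin that hands misfolded glycoproteins to the exit machinery, was at 57.99, 56.4 and 49.7 CPM in untreated control cells, 72.96, 74.1 and 64.8 in control cells with TGFβ1, 48.00, 59.2 and 55.7 in untreated knockout cells and 74.9, 78.4 and 67.1 in knockout cells with TGFβ1. Treated libraries lay above untreated ones in both genotypes. Its log2 fold change was 0.37 ± 0.10 in control cells (edgeR adjusted p = 0.0349), against 0.42 ± 0.10 in knockout cells (adjusted p = 0.0143). Its adjusted p reached 0.163 without control TGFβ1 replicate 2 and 0.0911 without PBRM1 KO TGFβ1 replicate 2. Syvn1, the ubiquitin ligase of the exit complex, stood at 33.9, 32.9 and 31.2 CPM in untreated control cells, 42.1, 47.7 and 37.3 in control cells with TGFβ1, 25.8, 34.5 and 30.4 in untreated knockout cells and 46.4, 45.8 and 34.7 in knockout cells with TGFβ1. In knockout cells the replicate 3 library with TGFβ1 was just above the highest untreated one, and in control cells too there was no overlap. Syvn1 changed by log2 0.37 ± 0.13 in control cells (edgeR adjusted p = 0.0965), against 0.47 ± 0.13 in knockout cells (adjusted p = 0.0342). Syvn1 in knockout cells passed in 4 of 12 fits that left out 1 library, with an adjusted p of up to 0.167. Sel1l, the scaffold of the ligase, was at 0.03 ± 0.12 (edgeR adjusted p = 0.905) in control and 0.16 ± 0.12 (edgeR adjusted p = 0.406) in knockout cells. Herpud1, which organises the exit complex and carries both the second ER stress element and the C/EBP-ATF element, was at −0.13 ± 0.19 and −0.12 ± 0.19 (adjusted p = 0.712 and 0.735). Replicate 3 had the lowest Herpud1 value in all 4 groups.

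**Figure D3:**
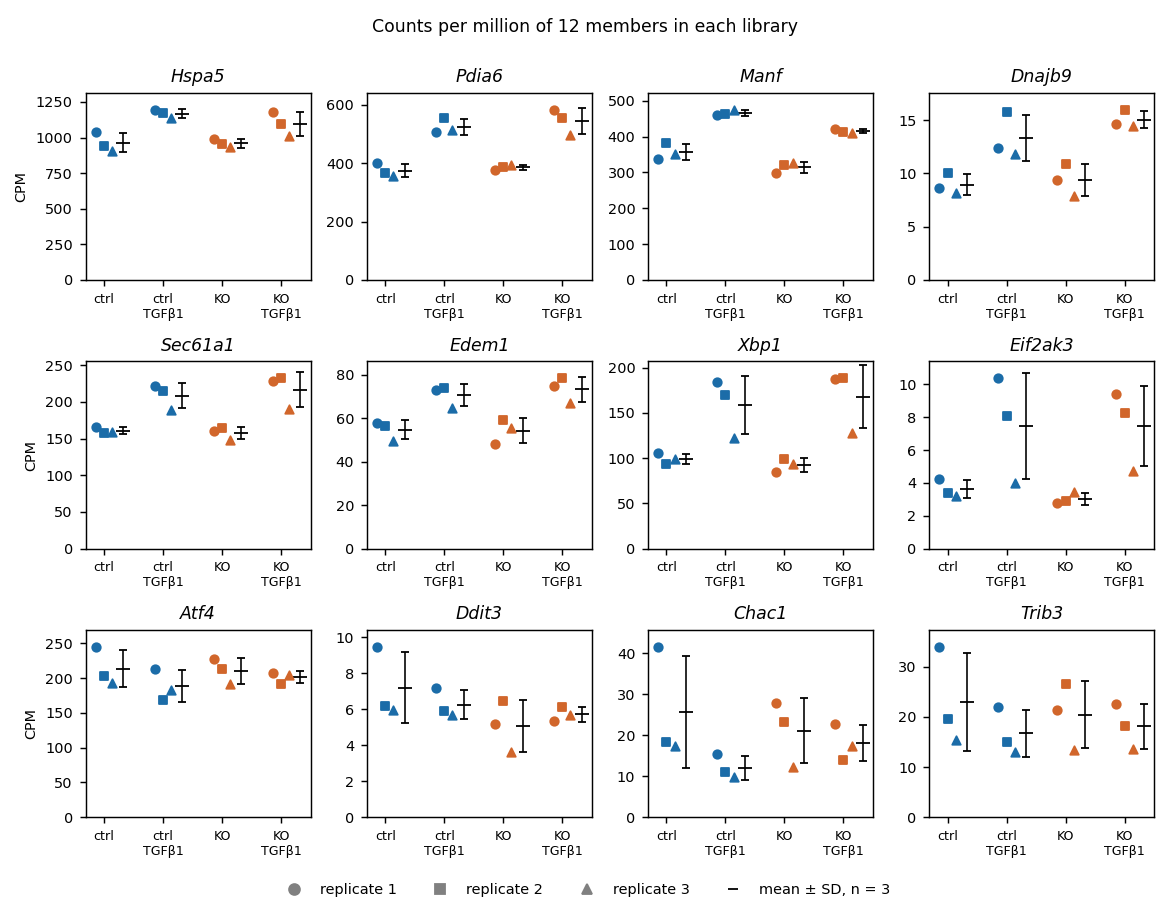
CPM of 12 of the genes (1 panel each, y axis from 0) in every library of the 4 groups (x axis); symbols are replicates 1 to 3 and the black bar is the mean ± SD, n = 3. For Xbp1 and Eif2ak3 the TGFβ1 replicate 3 libraries (triangles) lie well under replicates 1 and 2, and for Chac1 and Trib3 untreated control replicate 1 lies far above the other 2.

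Among the sensors and the factor XBP1, Xbp1 rose in both genotypes. Xbp1, the factor that IRE1 activates by splicing, was at 105, 93.4 and 98.6 CPM in untreated control cells, 184, 169 and 122 in control cells with TGFβ1, 84.3, 99.1 and 93.8 in untreated knockout cells and 187, 188 and 128 in knockout cells with TGFβ1. Replicate 3 with TGFβ1 was lowest of its group but still above all untreated libraries. Its log2 fold change was 0.67 ± 0.15 in control cells (edgeR adjusted p = 0.0176), against 0.84 ± 0.15 in knockout cells (adjusted p = 0.00412). Without both TGFβ1 replicate 3 libraries these became 0.82 ± 0.09 (adjusted p = 8.37e-06) and 1.00 ± 0.09 (adjusted p = 8.63e-07). Leaving out control TGFβ1 replicate 1 took the control value to an adjusted p of 0.0834, while the PBRM1 KO value passed in all 12 such fits. Eif2ak3, the gene of PERK, stood at 4.25, 3.41 and 3.19 CPM in untreated control cells, 10.4, 8.05 and 3.97 in control cells with TGFβ1, 2.76, 2.91 and 3.42 in untreated knockout cells and 9.44, 8.27 and 4.74 in knockout cells with TGFβ1. Its counts were low, from 30 to 100 a library. In control cells TGFβ1 replicate 3 lay within the untreated range, and in knockout cells it lay above it. The log2 fold change of Eif2ak3 was 1.03 ± 0.31 in control cells (edgeR adjusted p = 0.0589), against 1.28 ± 0.32 in knockout cells (adjusted p = 0.0208). Without both replicate 3 libraries it was 1.32 ± 0.18 (adjusted p = 8.34e-05) in control and 1.52 ± 0.18 (adjusted p = 2.02e-05) in knockout cells. Without PBRM1 KO TGFβ1 replicate 1 the adjusted p of Eif2ak3 in knockout cells was 0.104. Ern1, the gene of IRE1, was at 0.45 ± 0.18 (edgeR adjusted p = 0.142) in control and 0.17 ± 0.18 (edgeR adjusted p = 0.585) in knockout cells. Atf6 was at 0.26 ± 0.12 (edgeR adjusted p = 0.19) and 0.05 ± 0.12 (edgeR adjusted p = 0.838).

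The 5 ATF4-CHOP genes gave no call in either genotype with all libraries, and the alternatives that called Chac1 or Trib3 are given above. Atf4, the factor whose translation PERK favours, was at 244, 203 and 193 CPM in untreated control cells, 213, 169 and 183 in control cells with TGFβ1, 227, 213 and 191 in untreated knockout cells and 207, 192 and 205 in knockout cells with TGFβ1. The groups overlapped throughout. Its log2 fold change was −0.18 ± 0.11 in control cells (edgeR adjusted p = 0.314), against −0.08 ± 0.11 in knockout cells (adjusted p = 0.703). Ddit3, the gene of CHOP, a factor of prolonged stress, stood at 9.45, 6.17 and 5.96 CPM in untreated control cells, 7.18, 5.92 and 5.68 in control cells with TGFβ1, 5.16, 6.46 and 3.61 in untreated knockout cells and 5.33, 6.12 and 5.67 in knockout cells with TGFβ1. Ddit3 was counted 39 to 104 times a library, and treated and untreated libraries overlapped. Ddit3 changed by log2 −0.21 ± 0.21 in control cells (edgeR adjusted p = 0.591), against 0.16 ± 0.22 in knockout cells (adjusted p = 0.691). Chac1 and Trib3 are given in full because their spread stood out, a choice made after their values were seen. Chac1, a glutathione-degrading enzyme downstream of ATF4 and CHOP, held 41.5, 18.4 and 17.3 CPM in untreated control cells, 15.3, 10.9 and 9.94 in control cells with TGFβ1, 27.8, 23.3 and 12.3 in untreated knockout cells and 22.8, 14.04 and 17.4 in knockout cells with TGFβ1. The control libraries with TGFβ1 were all below the untreated ones, and in knockout cells the groups overlapped. Chac1 gave a log2 fold change of −1.10 ± 0.35 in control cells (edgeR adjusted p = 0.0676), against −0.24 ± 0.34 in knockout cells (adjusted p = 0.705). Trib3, a pseudokinase induced by ATF4 and CHOP, was counted at 33.9, 19.6 and 15.3 CPM in untreated control cells, 22.02, 15.01 and 13.1 in control cells with TGFβ1, 21.4, 26.6 and 13.3 in untreated knockout cells and 22.6, 18.1 and 13.7 in knockout cells with TGFβ1. Untreated control replicate 1 was the highest of all 12 libraries. Trib3 was at log2 −0.47 ± 0.30 in control cells (edgeR adjusted p = 0.369), against −0.19 ± 0.30 in knockout cells (adjusted p = 0.736). Ppp1r15a, which restores translation by dephosphorylating eIF2α, was at 0.39 ± 0.20 (edgeR adjusted p = 0.251) in control and 0.13 ± 0.20 (edgeR adjusted p = 0.731) in knockout cells. Standard errors of the 5 genes ran from 0.11 to 0.35. In control cells Ppp1r15a had a larger log2 fold change than Hspa5, which passed.

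A single untreated library weighed on this branch, and it was also high for many genes of the other groups. Untreated control replicate 1 had the highest value of its group for all 5 ATF4-CHOP genes, from 1.23 to 2.32 times the mean of replicates 2 and 3. The 11 chaperones ranged from 0.916 to 1.17 times in the same library, which was the highest of its group for 7 of them. It was also highest for 4 of 4 degradation genes, 5 of 6 isomerases and oxidases, 3 of 4 sensors and 2 of 3 translocon genes. Ratios reached 1.39 in degradation, 1.3 in isomerases and oxidases and 1.29 among sensors, above the lowest of the ATF4-CHOP genes. This was not counted over all tested genes, so a high replicate 1 is not shown to be particular to the branch. Without it, TGFβ1 in control cells gave Chac1 a log2 fold change of −0.61 ± 0.30 (edgeR adjusted p = 0.237) and Trib3 −0.11 ± 0.29 (adjusted p = 0.845). With all libraries these were −1.10 and −0.47. Atf4 then stood at −0.11 ± 0.11 and Ddit3 at 0.00 ± 0.22. Replicate 1 was the highest in all 4 groups for Atf4, Chac1 and Ppp1r15a, and in 3 of 4 for Trib3. The fit without untreated control replicate 1 still held control TGFβ1 replicate 1.

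Library by library, the chaperone median lay above the ATF4-CHOP median wherever TGFβ1 was given, and in some untreated libraries too. Single genes did not all follow: in control TGFβ1 replicate 1, Ppp1r15a (0.61) was above the highest chaperone, Dnajc3 (0.57). All libraries, knockout ones included, were set against the untreated control mean. That mean holds replicate 1, where the 5 ATF4-CHOP genes were 1.23 to 2.32 times the mean of replicates 2 and 3. The median log2 difference of the 11 chaperones from it was 0.31, 0.18 and 0.26 in the 3 control libraries with TGFβ1. The median of the 5 ATF4-CHOP genes was 0.01, −0.35 and −0.27 in them. In knockout cells with TGFβ1 the chaperones had medians of 0.20, 0.10 and −0.01 and the ATF4-CHOP genes −0.07, −0.20 and −0.28. In all 6 libraries with TGFβ1 the chaperone median was thus the higher of the pair. Untreated control replicates gave 0.03, 0.02 and −0.05 for chaperones and 0.37, −0.13 and −0.24 for ATF4-CHOP genes. Untreated knockout libraries gave −0.06, −0.15 and −0.13 against 0.10, 0.00 and −0.69, the last value being replicate 3. The chaperone median was thus also the higher in untreated control replicates 2 and 3 and in untreated knockout replicate 3. The ATF4-CHOP medians ranged from −0.69 to 0.37 over the 6 untreated libraries and from −0.35 to 0.01 over the 6 treated ones.

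**Figure D4:**
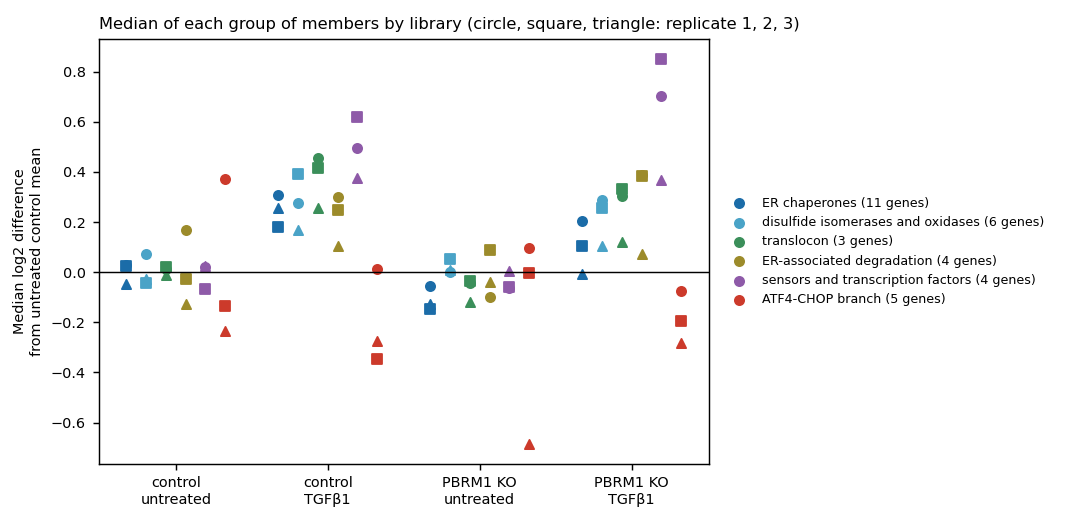
Median log2 difference from the untreated control mean (y axis) of each of 6 groups of genes (colours) in each library of the 4 groups (x axis); symbols are replicates 1 to 3. The ATF4-CHOP medians span 0.37 to −0.24 in untreated control cells alone, while the sensors lie highest with TGFβ1.

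The groups with and without TGFβ1 did not overlap for 17 genes that were higher and 1 that was lower in control cells. Over all tested genes 14% were higher and 12.2% lower without overlap. In knockout cells 14 were higher and 0 lower, against 16.1% and 13.7%. The single gene that was lower was Chac1 in control cells.

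PBRM1 knockout changed none of the 33 genes past the threshold. Without TGFβ1 0 rose and 0 fell, where 0.278% of all tested genes changed in either direction. With TGFβ1 it was again 0, where 0.271% changed. The replicate block left it at 0 in that comparison, where 0.35% of all tested genes rose and 0.778% fell. At an unadjusted p below 0.05, 1 gene was higher and 3 lower without TGFβ1, and 0 higher and 6 lower with it. The share of all tested genes at that unadjusted level was not counted, so these numbers cannot be set against it. DESeq2 and limma-voom called 0 of the 33 in both comparisons. With TGFβ1 the smallest p values belonged to chaperones that were lower in knockout cells, and Sdf2l1 is given in full for that reason, chosen after its values were seen. Sdf2l1 was at 17.99, 19.5 and 18.7 CPM in untreated control cells, 14.8, 16.8 and 23.3 in control cells with TGFβ1, 12.1, 15.97 and 14.1 in untreated knockout cells and 11.3, 12.2 and 13.7 in knockout cells with TGFβ1. The knockout libraries lay below the control libraries of the same treatment with no overlap. The genotype difference of Sdf2l1 was log2 −0.42 ± 0.17 (edgeR adjusted p = 0.545) without TGFβ1 and −0.57 ± 0.17 (edgeR adjusted p = 0.267) with it. Libraries of the same number deviated together in the second comparison, and with the block its adjusted p was 0.0693. Hsp90b1 was at −0.13 ± 0.08 (edgeR adjusted p = 0.87) without and −0.27 ± 0.08 (edgeR adjusted p = 0.311) with TGFβ1, and in the second case the groups did not overlap. Manf was lower without overlap in both, at −0.18 ± 0.07 (adjusted p = 0.559) and −0.18 ± 0.07 (adjusted p = 0.511). Dnajb11 was lower without overlap with TGFβ1, at −0.19 ± 0.07 (edgeR adjusted p = 0.49), and Dnajc3 and Sec61b without TGFβ1, at −0.18 ± 0.12 and −0.15 ± 0.08. Canx was higher without overlap in untreated cells, at 0.14 ± 0.07 (edgeR adjusted p = 0.761). In all, 1 gene was higher and 4 lower without overlap in untreated cells, where 6.95% and 8.71% of all genes were. With TGFβ1 0 were higher and 4 lower, against 6.28% and 5.61%. Of the 11 chaperones 9 had a negative genotype difference in each comparison, with medians of −0.08 and −0.14, and 0 passed. Over all tested genes, the median log2 difference from the untreated control mean lay between −0.006 and 0.007 in the 12 libraries. The share of all genes with a negative genotype difference is not given here, so the count of 9 has no value beside it. Both comparisons use different libraries of the same cell lines. For the ATF4-CHOP genes the medians were −0.17 and 0.08. Ern1 had the largest positive value in untreated cells, 0.47 ± 0.18 (edgeR adjusted p = 0.535), and Ddit3 the largest negative one, −0.50 ± 0.22 (edgeR adjusted p = 0.596).

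**Figure D5:**
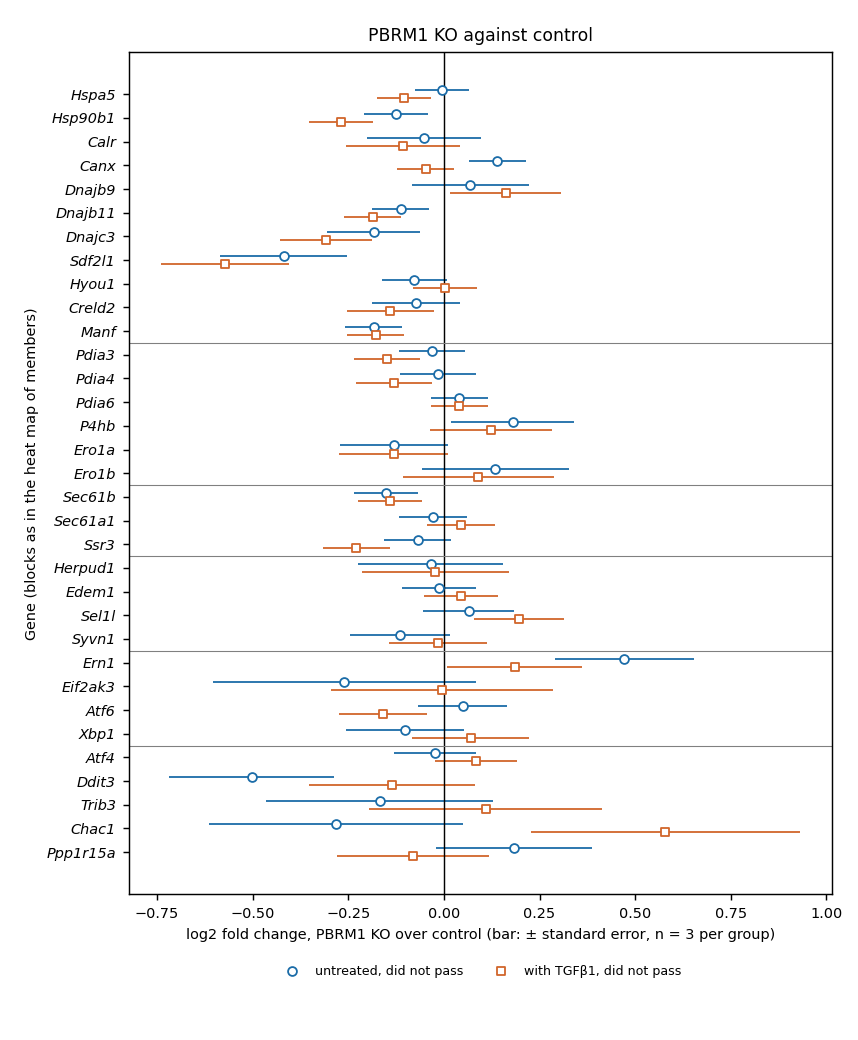
Log2 fold change of each of the 33 genes in PBRM1 KO against control cells (x axis), untreated (circles) and with TGFβ1 (squares); bars are ± standard error, n = 3 per group. All symbols are open because no gene passed, and Sdf2l1 lies to the left at −0.42 and −0.57.

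The response to TGFβ1 was not shown to differ between the genotypes for any of the 33 genes. In the interaction test 0 passed, as did 0% of all 14012 genes. At an unadjusted p below 0.05 it was 0 of the 33, a level not counted over all genes. DESeq2 and limma-voom also called 0. The smallest unadjusted p values belonged to Canx and Chac1, with differences in response of log2 −0.19 ± 0.10 and 0.86 ± 0.48 (PBRM1 KO minus control, edgeR adjusted p = 0.9996 for both). The differences were 0.00 ± 0.10 for Pdia6, 0.00 ± 0.11 for Manf and 0.01 ± 0.12 for Sec61b. For Hspa5, Ssr3 and Eif2ak3, which passed in 1 genotype only, they were −0.10 ± 0.10, −0.16 ± 0.12 and 0.26 ± 0.45. The standard error of the Eif2ak3 difference was larger than the difference.

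Other genes of the same machinery were read from 4 lists that hold none of the 33. With all libraries 5.89% of all genes rose and 2.91% fell in control cells, and 7.65% and 3.72% in knockout cells. These shares were 13.9% and 10%, and 16% and 12%, without both TGFβ1 replicate 3 libraries. Over the 12 fits without 1 library the share that rose ran from 1.84% to 10.4% in control and from 3.06% to 12% in knockout cells, and the share that fell reached 6.31% and 9.3%. Of 38 further genes of ER folding and quality control, 10 rose and 0 fell in control cells, with a median of 0.24. Txndc5, a disulfide isomerase, rose by log2 0.53 ± 0.08, Selenos, a selenoprotein of the exit machinery, by 0.84 ± 0.13 and Ckap4, which anchors ER sheets, by 0.78 ± 0.12. In knockout cells 10 rose and 1 fell, with a median of 0.21. Ckap4 rose by 0.82 ± 0.12, Kdelr3, a receptor that returns chaperones to the ER, by 1.12 ± 0.18 and Creb3l2, a stress factor of secretory cells, by 2.05 ± 0.35. Ppib, a prolyl isomerase of the ER, was the gene that fell, at −0.51 ± 0.14. Without both TGFβ1 replicate 3 libraries 20 of this list rose and 1 fell in control cells, and 18 rose and 2 fell in knockout cells. Leaving out 1 library gave 5 to 17 that rose in either genotype, lowest without untreated control replicate 3 or a control TGFβ1 replicate 1 or 2, and without PBRM1 KO TGFβ1 replicate 1 or 2. The value of 17 came without TGFβ1 replicate 3 of the genotype tested. Txndc5, Selenos and Ckap4 passed in all 12 such fits in control cells, as did Ckap4, Kdelr3 and Creb3l2 in knockout cells, while Ppib passed in 8.

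Of 20 genes of ER entry and glycosylation, 5 rose in control and 2 in knockout cells, and 0 fell. They included Ostc, of the glycosylation enzyme, at 0.38 ± 0.09, and Spcs2 and Spcs3, of signal peptidase, at 0.31 ± 0.08 and 0.37 ± 0.10 in control cells. In knockout cells they were Sec11c and Sec11a, the catalytic subunits of signal peptidase, at 0.47 ± 0.12 and 0.26 ± 0.07. Without both replicate 3 libraries 7 rose in control and 3 in knockout cells, and 0 fell. All these calls were lost when certain single libraries were left out. In control cells 0 rose without any 1 of the untreated replicates or of TGFβ1 replicates 1 and 2. In knockout cells 0 rose without any 1 of the untreated replicates or TGFβ1 replicate 1. With the replicate block 5 rose in knockout cells.

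The further targets and kinases of ATF4 and CHOP had calls in both directions, in knockout cells near the shares of all genes. Of 33 tested, 1 rose and 4 fell in control cells, with a median of −0.18, against 5.89% and 2.91% of all genes. Cebpb, a partner factor of ATF4 and CHOP, rose by log2 0.92 ± 0.16. Among those that fell were Phgdh and Psat1, enzymes of serine synthesis, at −0.58 ± 0.13 and −0.70 ± 0.19, and Slc7a5, an amino acid transporter, at −0.53 ± 0.14. In knockout cells 2 rose and 1 fell, with a median of −0.04, against 7.65% and 3.72% of all genes. Nupr1, a stress-induced chromatin protein, rose by 1.49 ± 0.38 and Cebpb by 0.58 ± 0.16, and Phgdh fell by 0.50 ± 0.13. Without both replicate 3 libraries 5 rose and 6 fell in control cells, against 13.9% and 10% of all genes. In that fit 4 rose and 4 fell in knockout cells, against 16% and 12%. Without 1 library, 1 to 3 rose and 0 to 5 fell in control cells, with 0 that fell without untreated replicate 2 or TGFβ1 replicate 1 or 2. In knockout cells it was 0 to 4 in each direction, with 0 in both without untreated replicate 1 or 3 or TGFβ1 replicate 1 or 2. The replicate block gave 4 that rose and 2 that fell there. Cebpb passed in all 12 of these fits in control cells and in 4 in knockout cells. Cebpb was also the 1 gene of the 4 lists that passed between genotypes: with TGFβ1 it was lower in knockout cells by log2 −0.93 ± 0.16 (edgeR adjusted p = 0.0322), and without TGFβ1 it was at −0.59 ± 0.16 (edgeR adjusted p = 0.239). The call with TGFβ1 held in 3 of 12 fits without 1 library, with an adjusted p of up to 0.171 without PBRM1 KO TGFβ1 replicate 1. It was also lost with only the 6 libraries of the contrast. It was lost without any control library except TGFβ1 replicate 3, and without untreated PBRM1 KO replicate 3 or any PBRM1 KO TGFβ1 replicate. The sign was the same in every fit, between −1.08 and −0.80. Without TGFβ1 Cebpb passed with no count filter, with the block and without both replicate 3 libraries (edgeR adjusted p = 0.0476). Smallest by p in the other lists were Rpn1, a glycosylation subunit, at −0.32 ± 0.07 (edgeR adjusted p = 0.121) with TGFβ1 (called by DESeq2, adjusted p = 0.0171) and −0.20 ± 0.07 without, and Bcap31, an ER membrane protein, at −0.35 ± 0.10 and −0.29 ± 0.10.

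Chaperones outside the ER were read in the same way. Of 24 cytosolic and mitochondrial chaperones 0 rose and 1 fell in control cells, with a median of −0.10, and 0 rose and 2 fell in knockout cells, with a median of −0.12. Hspa1b, the inducible cytosolic Hsp70, fell by log2 0.91 ± 0.15 in control and by 1.16 ± 0.16 in knockout cells. Hspa9, the mitochondrial Hsp70, fell by 0.37 ± 0.11 in knockout cells. Hspa1b and its twin Hspa1a are near-identical copies, so its counts are uncertain. Without both replicate 3 libraries 1 of this list rose and 6 fell in control cells, and 1 rose and 9 fell in knockout cells, where 10% and 12% of all genes fell. Without 1 library 1 to 3 fell in control cells and 1 to 5 in knockout cells, in each case most without TGFβ1 replicate 3 of that genotype. Hspa1b passed in all 12 of these fits in both genotypes and Hspa9 in 3. Between genotypes the smallest p in this list belonged to Hsph1 without TGFβ1, at 0.27 ± 0.17 (edgeR adjusted p = 0.863), and to Hspa1b with it, at −0.32 ± 0.16 (edgeR adjusted p = 0.629).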

How the data were processed

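Messenger RNA of 12 libraries was measured by 3′ end counting, stranded and deduplicated by molecular identifiers, as the labels' protocols say. The submitters' processing notes name build mm39 and the tools edgeR 3.38.4, fastp 0.24.0, featureCounts, SAMtools 1.22.1, STAR 2.7.11 and Subread 2.1.1, and no annotation release is given in the sources used here. Deposited values are expected counts per gene (91.8% of them whole), per the file headers, with CPM columns that the authors made from count and library total. The 92 spike-in entries held 0 counts and were left out.

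Counts were rounded, filtered with filterByExpr (14012 of 78317 genes) and scaled by TMM. Tests used edgeR 4.0.16 in R 4.3.3: 1 mean per group over 12 libraries, the quasi-likelihood F test and Benjamini-Hochberg adjustment over all tested genes, with a threshold of 0.05. The script was tested on simulated data. Standard errors were taken as log2 fold change divided by the root of F. Biological replicates are numbered without a stated shared day. For TGFβ1 in PBRM1 KO cells, correlations between the deviations of libraries with 1 number were 0.213, 0.16 and 0.205. For genotype with TGFβ1 they were 0.425, 0.45 and 0.756. Each is over 0.1, so both contrasts were read as paired from the data. All main counts and adjusted p values nevertheless come from the fit without a replicate block. Values with the block are given as an alternative. If the replicates were not separate cultures, p measures technical spread.

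Genes named are the 33, with all 12 values for the 14 of 15 passing genes with the smallest p and for Hspa5, Xbp1, Atf4, Ddit3 and Hsp90b1. Of each further list and comparison, up to 3 genes per direction by p were named, or the 1 with the smallest p where none passed. The members, lists and tests were chosen with earlier results of these data known. Alternatives were DESeq2 1.42.0, limma 3.58.1 (voom), other scalings and filters, only 6 libraries, the replicate block, unrounded counts and leaving out libraries. Promoter letters came from RefSeq (GRCm38.p6), so none of its positions was joined to the mm39 counts.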

Additional observations from a re-analysis of the deposited data

How the results depend on the processing

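Over 22 alternatives no value that passed changed its sign. Of the 13 genes that rose in control cells, 2 (Manf and Pdia6) passed in all, and of the 10 in PBRM1 KO cells 4 (Manf, Pdia6, Xbp1 and Sec61a1) did. In control cells the number of the 33 genes that rose was 6 with only the 6 libraries of the contrast. Chaperones, isomerases and oxidases that rose there numbered 5 with library totals only and 2 with only the 6 libraries. With no filter on low counts 2 genes fell, both of the ATF4-CHOP branch (Chac1 and Trib3), and with the replicate block 1 fell (Chac1, edgeR adjusted p = 0.00339). That contrast was not paired by its replicate correlations of 0.27, −0.102 and 0.147, and genotype without TGFβ1 was not by 0.175, 0.0786 and 0.14. Under the block 16 genes rose in control cells, and in PBRM1 KO cells 8 chaperones, isomerases and oxidases rose. The block moved further counts by over 1.5 times. In control cells genes that rose went from 10 to 16 in the list of other ER folding genes, from 5 to 8 in ER entry and from 1 to 3 among other ATF4 and CHOP targets, of which 7 in place of 4 fell. Rises in degradation and among sensors went from 1 to 2 each, and falls from 1 to 2 in cytosolic chaperones and from 0 to 1 in ER folding. In PBRM1 KO cells rises went from 3 to 5 in chaperones, from 1 to 3 in isomerases and oxidases, from 2 to 5 in ER entry and from 2 to 4 in other ATF4 and CHOP targets. Falls there went from 1 to 2 in the latter and in ER folding. Between genotypes without TGFβ1 1 gene (Cebpb) fell in place of 0. Over all genes in control cells 10.8% rose and 6.35% fell with the block, against 5.89% and 2.91%. Without both TGFβ1 replicate 3 libraries 1 gene fell in control cells, an oxidase, while in PBRM1 KO cells 16 rose and 1 fell, of which 9 and 1 were chaperones, isomerases and oxidases. For genotype with TGFβ1 1 gene rose with no filter (Chac1). Leaving out 1 library gave 2 to 15 genes that rose and 0 to 1 that fell in control cells, with 2 to 8 chaperones, isomerases and oxidases and 0 to 1 ATF4-CHOP genes that fell. In PBRM1 KO cells it gave 5 to 14 genes and 2 to 7 chaperones, isomerases and oxidases that rose. No genotype or interaction count of the 33 left 0 in those fits. The cause of these changes was not tested. Depth limits Eif2ak3, Ero1b and Ddit3 most, with at least 30, 30 and 39 counts a library.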

Other observations

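Libraries of the same replicate number shared a place within their groups for several of the 33 genes. Replicate 1 had the highest CPM in all 4 groups for 7 genes: Hspa5, Calr, Dnajb11, P4hb, Atf4, Chac1 and Ppp1r15a. Replicate 2 was highest in all 4 for 2, Dnajb9 and Pdia4, and replicate 3 for 0. Replicate 3 was lowest in all 4 groups for 6 genes: Hspa5, Dnajb9, Trib3, Herpud1, Sec61b and Ssr3. Sdf2l1 was the 1 gene with replicate 1 lowest in all 4. These places were read after the values were seen and were not tested. They were not counted over all tested genes, so they are not shown to be particular to the 33.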
